A study of Homo sapiens with 33 samples.

Results

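IL4I1, IDO1, KYNU and KMO encode enzymes that break down tryptophan or other aromatic amino acids, and their transcripts were followed in THP-1 cells, an established human leukaemia line with features of monocytes. The 4 genes were chosen by name with measured values of these arrays known. Which values those were is not stated, and they are taken here to be the log2 change of IL4I1 in TNF against vehicle. Values of the 4 genes in TNF, or RA plus TNF, against vehicle are therefore given as a description, with no test. So is the difference between their RA effects with and without TNF, which contains the change of TNF against vehicle. The 4 genes had 9 probe sets of their own, of 54613 probe sets and 19775 genes measured: 1 for IL4I1, 1 for IDO1, 4 for KYNU and 3 for KMO. All 9 entered the fits, since none was removed for low signal. One more probe set, 214935_at, lists both IL4I1 and the nucleoporin gene NUP62 and was left out. It lay between -3.91 and 0.98 on the log2 scale used here, and above the array median on 5 of 33 arrays.

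Cells harvested at 40 h had received 20 nM all-trans retinoic acid (RA) with TNF at 5 ng per ml (5 wells), TNF alone (5 wells), RA alone (5 wells) or the ethanol vehicle at 0.1% (6 wells). RA was present for 40 h, with fresh RA after the first 16 h, and TNF for the last 24 h. For the RA time course there were 5 further vehicle wells and RA wells at 2 h (2 wells), 6 h (2 wells) and 16 h (3 wells). The titles and the design text put these vehicle wells at 0 h, whereas the treatment notes give 16 h of ethanol before harvest, and they are called vehicle 16 h here. No gene was altered in any group, and THP-1 is a single leukaemic line, so the values describe that line under those agents. Each array held RNA of 1 culture well, and the p-values below measure the spread between wells of this line.

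Tryptophan is opened to N-formylkynurenine by IDO1, its relative IDO2 or TDO2. The resulting kynurenine is hydroxylated by KMO, and KYNU then cleaves hydroxykynurenine or kynurenine itself, on the way to quinolinate and NAD. IL4I1 is a secreted flavin oxidase of L-phenylalanine and other aromatic amino acids, made by mature dendritic cells and macrophages. Products of both routes, kynurenine and indole-3-pyruvate among them, can activate AHR, the aryl hydrocarbon receptor, and IDO1 is best known as a gene induced by interferon gamma.

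Values are log2 of a probe set's signal over the median signal of its array, so 0 is the array median. They are set side by side only within a probe set, since brightness differs between probes for reasons other than abundance. Signals are also given in scanner units, where the floor is 1 unit and the array medians ran from 18.9 to 45.2 units. The record numbers of the arrays form 2 runs, here array set 1, with 12 arrays, and array set 2, with 21, and each 40 h group has arrays in both. Array set 1 holds 3 arrays of each 40 h group. Array set 2 holds 3 vehicle arrays at 40 h but only 2 each of RA, TNF and RA plus TNF. A failure to pass in array set 2 alone is read with those small numbers in mind. Replicate arrays of a group correlated at r = 0.801 to 0.906 over all probe sets. The myeloid genes LYZ, SPI1, ITGAM, CSF1R and ELANE were above the array median in all 8 groups and CD14 in 7, whereas FCGR1A was below it in all 8 and MPO in all but 3. Of 16 lymphocyte, erythroid or stromal marker genes, only CD79A, NKG7, HBB and COL1A1 were above it in every group. The summed signal of the 7 lymphocyte markers was 435 to 532 units with RA plus TNF, 428 to 629 with TNF and 253 to 406 with RA, against 242 to 595 in vehicle at 40 h, whereas that of the 8 monocytic markers was 9928 to 11850 with RA plus TNF, 9729 to 13310 with TNF and 13678 to 15359 with RA, against 14813 to 20580 in vehicle. The monocytic sum was thus lower on every array with TNF than on every 40 h array without it. That sum is mostly ELANE, with a mean signal of 9884 units against 2338 for LYZ, the next highest, so it largely follows 1 gene. Group means of CD14, also in the sum, ran from -0.63 to 5.54. The part of either sum in the results was not tested.

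The promoter windows below, 250 bases before to 50 bases after the start that RefSeq's table gives for each gene (GRCh38.p14), are shown for IL4I1 and KYNU, the members whose level differed between groups, and for TDO2, the other enzyme of the pathway that did. Capitals mark matches, on either strand, to the motifs searched. These were the kappaB core, the interferon-stimulated response element (ISRE), the GAS element TTCNNNGAA, the AP-1 site TGANTCA, the retinoic acid receptor half-site AGGTCA, the AHR site core GCGTG, the CCAAT box and TATAAA, where N is any base.
IL4I1, chr19:49929455-49929754, minus strand: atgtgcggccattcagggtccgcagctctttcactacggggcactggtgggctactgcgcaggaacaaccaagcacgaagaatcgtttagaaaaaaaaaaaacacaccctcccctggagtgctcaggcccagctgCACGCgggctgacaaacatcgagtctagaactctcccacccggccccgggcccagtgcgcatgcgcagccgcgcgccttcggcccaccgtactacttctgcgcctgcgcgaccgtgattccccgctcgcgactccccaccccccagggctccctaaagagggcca
KYNU, chr2:142877414-142877713, plus strand: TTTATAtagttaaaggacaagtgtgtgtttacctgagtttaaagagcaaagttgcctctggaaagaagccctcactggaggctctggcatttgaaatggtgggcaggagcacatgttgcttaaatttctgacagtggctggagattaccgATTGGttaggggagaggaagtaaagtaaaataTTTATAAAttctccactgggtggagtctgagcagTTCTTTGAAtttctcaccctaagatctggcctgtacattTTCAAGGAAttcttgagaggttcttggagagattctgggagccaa
TDO2, chr4:155903446-155903745, plus strand: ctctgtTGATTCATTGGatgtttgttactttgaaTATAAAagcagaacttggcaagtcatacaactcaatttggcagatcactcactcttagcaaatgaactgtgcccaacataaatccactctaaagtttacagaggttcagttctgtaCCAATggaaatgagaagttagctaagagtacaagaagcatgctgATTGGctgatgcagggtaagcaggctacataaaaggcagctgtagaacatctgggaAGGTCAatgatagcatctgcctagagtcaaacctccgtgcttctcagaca

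The IL4I1 window held 1 match, to the AHR site core, read on the opposite strand and beginning at position -115 from the start. That core occurs in 36.5% of 35116 such windows. The KYNU window held 2 GAS matches, at -34 and 6, a motif found in 7.66% of windows. It also had 1 CCAAT match, at -100, and 3 TATAAA matches, at -250, -68 and -66. In the TDO2 window an AP-1 match (7.71% of windows) began at -244 and overlapped a CCAAT match at -238. A receptor half-site (13.8% of windows) began at position 1. The kappaB core, found in 1.91% of windows, and the ISRE, in 3.57%, had no match in these 3 windows. A match to so few letters is a description of the sequence, and other starts of these genes were not looked at. The IL4I1 window is also the window of NUP62, because both genes, on the minus strand of chromosome 19, share a start at 49929504 in RefSeq. IL4I1 extends from 49889654 to 49929504, KYNU on chromosome 2 from 142877664 to 143055833, and KMO on chromosome 1 from 241532378 to 241595642. IDO1 is on chromosome 8.

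IL4I1 was at its highest where TNF was present. Within the TNF-treated wells its readings were higher still with RA, a difference that did not pass in the fit over all arrays of the 40 h groups. With RA plus TNF the 5 arrays read 5.29, 5.18, 5.10, 5.29 and 5.39, or 1125 to 1318 signal units. TNF alone gave 4.16, 4.35, 4.47, 4.61 and 4.46, or 612 to 820 units. With RA alone the arrays read -0.24, -2.25, -3.27, 0.47 and -1.20, and the 6 vehicle arrays at 40 h ran from -3.19 over a median of -1.52 to 0.52. Every array with TNF lay above every array without it, and all 5 arrays with both agents lay above all 5 with TNF alone. Without TNF the transcript was near or below the array median (3.5 to 42.6 units), and the RA and vehicle arrays overlapped over most of their range. In these values fewer cells and less RNA per cell cannot be told apart.

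The tests on IL4I1 that did not use the comparison of TNF with vehicle start with the combined treatment against RA alone, the effect of TNF in cells that had RA. IL4I1 rose 93.5-fold there (log2 6.55 ± 0.47, SE; 95% interval 48.3- to 181-fold; limma with Benjamini-Hochberg adjustment over all probe sets, adjusted p = 2.31e-13; n = 5 each). The difference was 7.11 in array set 1 and 5.70 in array set 2. In this comparison 4 of the 9 probe sets passed the threshold of 0.05, all of them higher, against 4.03% of all 54613 probe sets in either direction and 2.42% higher. They were that of IL4I1 and 3 of the single gene KYNU, so the count is not one of independent results. The comparison is again an effect of TNF, for which IL4I1 is taken to have been chosen. Because 4 of the 5 RA arrays were below the array median, the size of the fold rests on dim readings, whose SD was 0.11 with both agents against 1.5 with RA.

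RA plus TNF against TNF alone gave a difference of 0.84 (1.79-fold) for IL4I1, and whether it passed depended on which arrays set the error. In the fit over all 21 arrays of the 40 h groups the SE was 0.47 and the adjusted p was 0.527. The spread in that fit is shared with the dim RA and vehicle arrays. In a limma fit of only the 10 arrays compared, added after the values had been seen, the SE was 0.13 and the adjusted p was 0.000111. The difference was 0.86 within array set 1 and 0.81 within array set 2. The groups did not overlap, which held for 2.76% of all probe sets in this comparison. No probe set of the 4 genes passed in the fit over all arrays, against 2.53% of all probe sets.

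**Figure D1:**
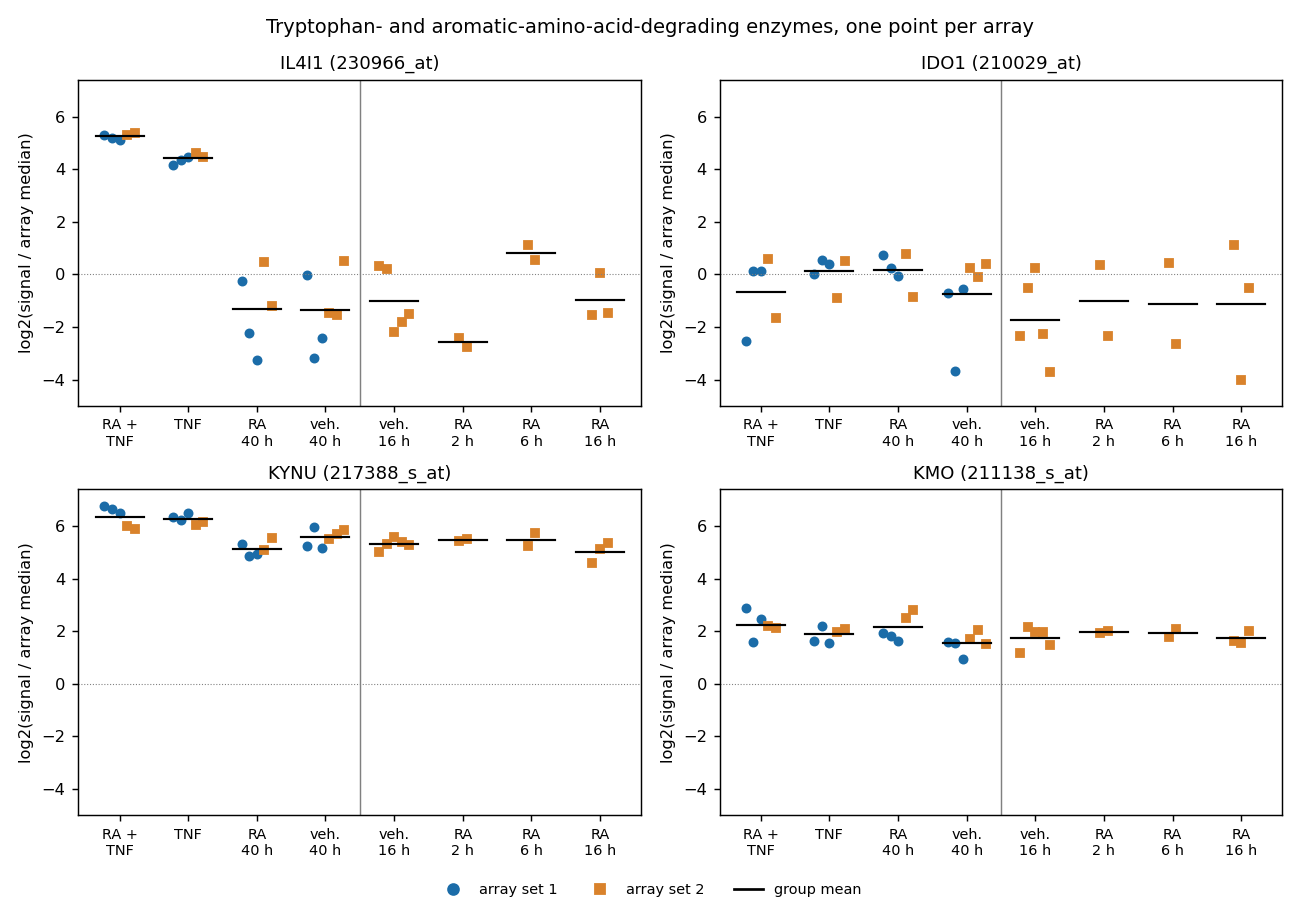
Level of 1 probe set of each gene on every array, as log2 of signal over the array median (dotted line at 0), with the 40 h groups left of the vertical line, the 16 h vehicle and earlier RA times right of it, points coloured by array set and bars at group means. IL4I1 averages 5.25 with RA plus TNF and 4.41 with TNF and lies near or below 0 on most other arrays, while IDO1 never exceeds 1.12.

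RA alone against vehicle at 40 h left no detectable difference in IL4I1 (0.14 ± 0.45, 95% interval -0.78 to 1.05, adjusted p = 0.982), and 0 of the 9 probe sets passed in limma, against 1.22% of all probe sets. The interval is wide at these dim levels and is not a limit of detection, since a larger change could also fail to pass after adjustment. The difference between the RA effect under TNF and the RA effect without it (the interaction) was 0.70 ± 0.65 for IL4I1. It contains the change of TNF against vehicle that is taken to have chosen the genes, so it is a description here. Of all probe sets, the interaction called 0.101%. Against vehicle, IL4I1 was higher by 6.68 ± 0.45 with RA plus TNF and by 5.84 ± 0.45 with TNF, given as a description. Both comparisons use the same vehicle arrays.

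IDO1, the interferon-inducible first enzyme of the pathway, stayed near or below the array median in all 8 groups and passed no comparison. It read -2.55, 0.12, 0.15, 0.57 and -1.65 with RA plus TNF. TNF alone gave 0.02, 0.55, 0.41, -0.88 and 0.51. RA alone gave 0.75, 0.25, -0.08, 0.76 and -0.86, and vehicle at 40 h ranged from -3.68 over a median of -0.34 to 0.39. These 4 groups overlapped, and on all 33 arrays the signal lay between 2 and 76.2 units. RA plus TNF against TNF gave -0.79 ± 0.69 (adjusted p = 0.755), with an interval of -2.19 to 0.60. Against RA alone the combined treatment gave -0.83 ± 0.69 (0.697), and RA against vehicle gave 0.94 ± 0.66 (0.807). For a transcript this close to the median the intervals are wide, and differences inside them remain possible. They are not limits of detection, since a larger difference could also fail to pass after adjustment.

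KYNU, which cleaves kynurenine and hydroxykynurenine, was far above the array median in every group on 3 of its 4 probe sets and rose with TNF in cells that had RA. On 217388_s_at the arrays read 6.74, 6.66, 6.50, 6.00 and 5.90 with RA plus TNF (1601 to 3674 units). TNF alone gave 6.36, 6.24, 6.48, 6.05 and 6.14. RA alone gave 5.32, 4.86, 4.93, 5.07 and 5.54, and vehicle at 40 h ran from 5.16 over a median of 5.61 to 5.95. All arrays with TNF were above all RA arrays, whereas the RA plus TNF and TNF arrays overlapped.

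RA plus TNF against RA raised KYNU 2.32-fold on 217388_s_at (log2 1.21 ± 0.18, limma adjusted p = 5.49e-06), 2.34-fold on 210663_s_at (1.23 ± 0.19, 2.28e-05) and 2.32-fold on 204385_at (1.22 ± 0.19, 2.52e-05). The groups did not overlap on any of the 3, as held for 2.79% of all probe sets. The rise was larger in array set 1. There it was 1.60 on 217388_s_at (adjusted p = 1.25e-06), 1.55 on 210663_s_at (1.51e-05) and 1.65 on 204385_at (7.00e-06). In array set 2 alone, with 2 arrays in each of these groups, it was 0.64 (adjusted p = 0.189), 0.74 (0.140) and 0.57 (0.408) on the same probe sets. None passed there. The fourth probe set, 210662_at, was at the 1-unit floor on 5 arrays and above the array median on 2, and it passed no comparison.

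**Figure D2:**
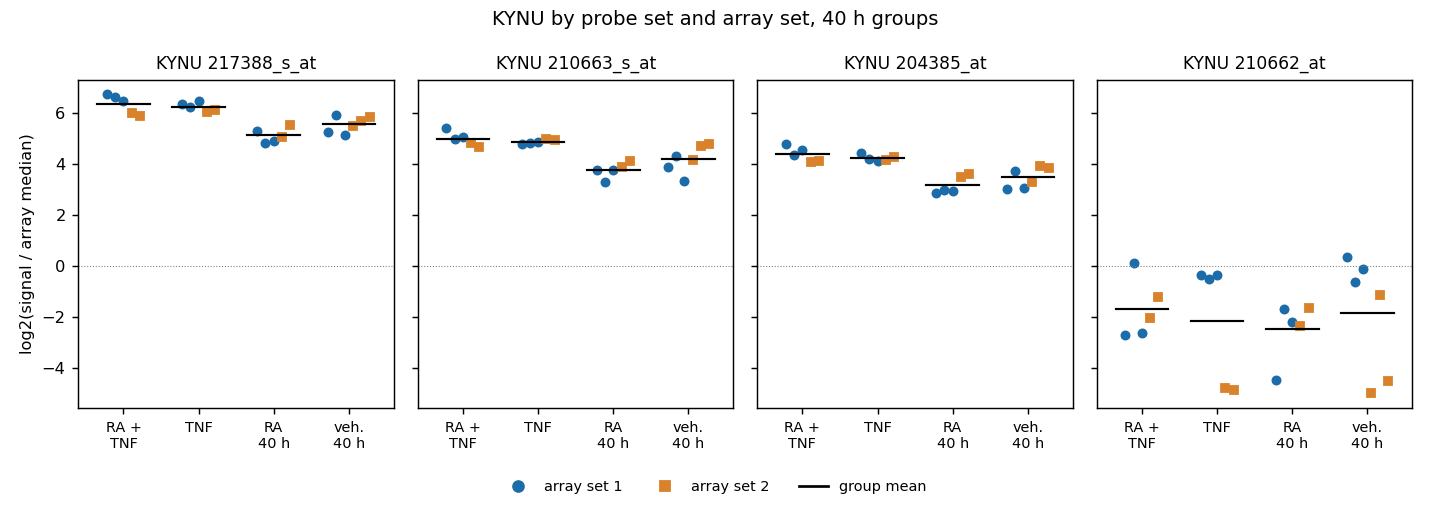
KYNU in the 40 h groups on its 4 probe sets, as log2 of signal over the array median, with points coloured by array set and bars at group means. On the 3 probe sets left of 210662_at the RA plus TNF arrays lie above the RA arrays, with the wider gap in array set 1, and 210662_at scatters from the floor to just above the array median.

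Adding RA to TNF left no detectable difference in KYNU. RA plus TNF against TNF gave 0.11 ± 0.18 on 217388_s_at, with an interval of -0.25 to 0.46, and 0.11 and 0.15 on 210663_s_at and 204385_at (adjusted p = 0.860 to 0.906 on the 3). RA against vehicle gave lower values that did not pass: -0.43 ± 0.17 on 217388_s_at (adjusted p = 0.373), -0.41 ± 0.19 on 210663_s_at (0.518) and -0.29 ± 0.18 on 204385_at (0.762). After quantile normalization the first of these was -0.45 and passed (adjusted p = 0.0169), as it did with the scanner's own scaling (-0.46, 0.0478). TNF against vehicle, given as a description, was 0.67 on 217388_s_at, 0.70 on 210663_s_at and 0.77 on 204385_at.

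KMO, the mitochondrial hydroxylase of kynurenine, passed none of the comparisons tested, and its probe sets differed in sign under TNF. On 211138_s_at it read 2.90, 1.60, 2.45, 2.20 and 2.11 with RA plus TNF and 1.63, 2.21, 1.54, 1.99 and 2.08 with TNF alone. RA alone gave 1.95, 1.83, 1.62, 2.51 and 2.81, and vehicle at 40 h ran from 0.93 over a median of 1.58 to 2.06. On this probe set all 4 groups overlapped. RA against vehicle gave 0.62 ± 0.25 on this probe set (adjusted p = 0.432) and 0.63 ± 0.30 on 205306_x_at (0.550), but 0.10 ± 0.39 on 205307_s_at (0.986).

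On 205307_s_at, which was nearest the array median (17.8 to 87.6 units), RA plus TNF read 1.19, 0.61, 0.87, 1.17 and 1.18, against 0.64, -0.57, -0.06, -0.19 and -0.68 with TNF alone. The ranges met only at 1 array each side, and the difference of 1.18 ± 0.41 did not pass (adjusted p = 0.148). On the other probe sets it was 0.54 ± 0.31 (205306_x_at, 0.539) and 0.37 ± 0.26 (211138_s_at, 0.672). TNF against vehicle, as a description, was -0.80 on 205307_s_at but 0.58 and 0.36 on 205306_x_at and 211138_s_at, so no direction is given for KMO under TNF. In RA plus TNF against vehicle, also a description, the largest KMO change was on 205306_x_at. There RA plus TNF read 1.96 to 2.88 and vehicle 0.18 to 1.80, without overlap (as for 3.75% of all probe sets), a difference of 1.12 ± 0.30. In the same comparison 211138_s_at gave 0.73 ± 0.25 and 205307_s_at 0.37 ± 0.39. RA plus TNF against RA gave 0.49, 0.27 and 0.11 on 205306_x_at, 205307_s_at and 211138_s_at, with none passing (adjusted p = 0.546 to 0.931).

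**Figure D3:**
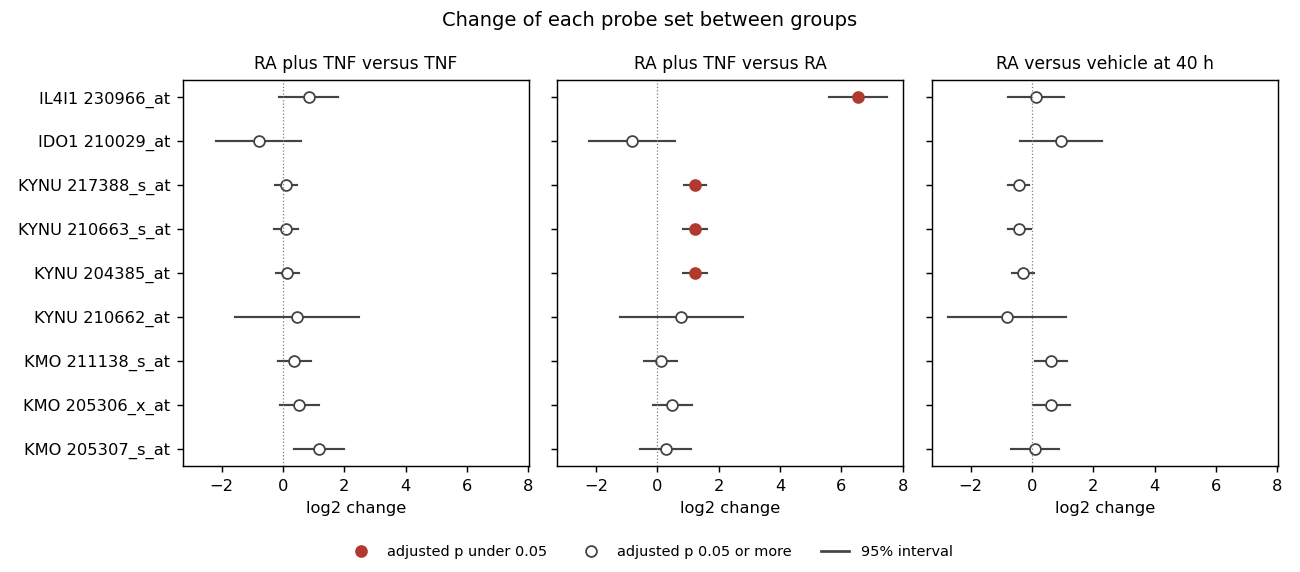
Log2 change of each of the 9 probe sets in RA plus TNF against TNF, RA plus TNF against RA and RA against vehicle at 40 h, with 95% intervals from the fit over all 21 arrays; filled points have an adjusted p under 0.05. Filled points occur only in the middle panel, for IL4I1 (6.55) and 3 KYNU probe sets (1.21 to 1.23).

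Over the 8 groups the order of IL4I1 means was RA plus TNF (5.25), TNF (4.41), RA 6 h (0.83), RA 16 h (-0.98), vehicle 16 h (-1.0), RA 40 h (-1.30), vehicle 40 h (-1.36) and RA 2 h (-2.59). From RA 16 h to vehicle 40 h each step was at most 0.30, less than the SD of 0.91 to 1.5 within those groups. For KYNU on 217388_s_at the means ran from 6.36 with RA plus TNF and 6.25 with TNF, which are 0.11 apart with SDs of 0.39 and 0.17, to 5.14 at RA 40 h and 5.03 at RA 16 h. For IDO1 the highest mean (0.16, RA 40 h) and the next (0.12, TNF) were 0.04 apart, and no step in its order exceeded the larger SD of the 2 groups beside it. KMO on 211138_s_at spanned 2.25 with RA plus TNF to 1.56 in vehicle at 40 h, with SDs of 0.05 to 0.50. Across the 21 arrays of the 40 h groups IL4I1 and KYNU (217388_s_at) correlated at r = 0.816, IL4I1 and KMO at 0.356 (211138_s_at), 0.562 (205306_x_at) and -0.10 (205307_s_at), and IL4I1 and IDO1 at 0.111. These coefficients are descriptive, since the points share treatment groups and array sets.

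The RA time course set each time against 8 vehicle arrays of array set 2, 5 of vehicle 16 h and 3 of vehicle 40 h. No vehicle well was harvested at 2 h or 6 h. At those times, for every gene below, an effect of RA cannot be told apart from one of time in culture. The median over all probe sets itself was 0.24 (2 h), 0.26 (6 h), -0.14 (16 h) and 0.09 (40 h), and single changes are read beside those shifts. The array medians before centring were 22.1 and 24.4 units at 2 h and 18.9 and 25.6 at 6 h, against 24.8 to 35.6 in vehicle, and the part of this in the results was not tested. None of the 9 probe sets passed at any time in limma, where the share of all probe sets that passed was 0.251% (2 h), 1.74% (6 h), 1.81% (16 h) and 1.51% (40 h).

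IL4I1 moved most between times but on few, dim arrays. It read -2.44 and -2.74 at 2 h, 1.12 and 0.53 at 6 h, -1.56, 0.07 and -1.46 at 16 h, and 0.47 and -1.20 at 40 h. The 8 vehicle arrays ran from -2.19 over a median of -1.49 to 0.52. Both 2 h arrays lay below every vehicle array and both 6 h arrays above every one, and such a gap in either direction was found for 11% of all probe sets at 2 h and 9.84% at 6 h. The changes were -1.65 ± 0.87 at 2 h (adjusted p = 0.502), 1.77 ± 0.87 at 6 h (0.345), -0.04 ± 0.74 at 16 h (0.990) and 0.57 ± 0.87 at 40 h (0.922).

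KYNU on 217388_s_at changed by 0.01 at 2 h, 0.03 at 6 h, -0.43 ± 0.18 at 16 h (adjusted p = 0.284) and -0.15 by 40 h. At 16 h its other probe sets above the array median gave -0.51 (0.242) and -0.43 (0.421). KMO on 211138_s_at changed by 0.23, 0.18, -0.03 and 0.90 at those times, the last with an SE of 0.29 and an adjusted p of 0.165. Both 40 h arrays were above every vehicle array there and on 205306_x_at (0.82 ± 0.31, 0.342), as for 7.61% of all probe sets. IDO1 changed by 0.01, -0.10, -0.13 and 0.96, with SEs of 1.00 to 1.16.

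**Figure D4:**
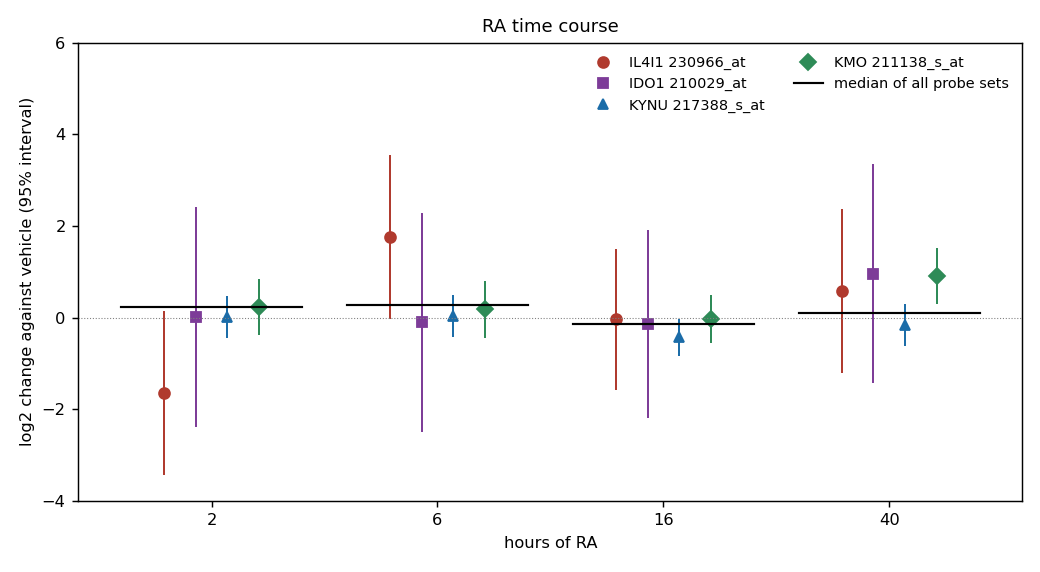
Log2 change of 1 probe set per gene at 2, 6, 16 and 40 h of RA against the 8 vehicle arrays, with 95% intervals; black bars are the median change of all probe sets at that time. IL4I1 goes below the median change at 2 h (-1.65) and above it at 6 h (1.77), with wide intervals, and KYNU lies below it at 16 h (-0.43).

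Among the 10 other enzymes of the kynurenine pathway TDO2 alone passed, in RA plus TNF against TNF, RA plus TNF against RA and TNF against vehicle. Those comparisons called 2.53%, 4.03% and 3.26% of all probe sets. TDO2, which opens tryptophan as IDO1 does and is mainly known from liver, read 4.84, 4.45, 4.30, 4.05 and 3.85 with RA plus TNF (388 to 850 units) on 205943_at. TNF alone gave 1.32, 1.24, 1.16, 1.02 and 0.94. RA alone gave -0.26, -0.14, -4.07, 0.08 and 0.41, and vehicle at 40 h ran from -4.12 to 0.19. The 3 levels did not overlap: both agents above TNF alone, and TNF alone above the arrays without TNF. RA plus TNF and TNF did not overlap for 2.76% of all probe sets. The share for TNF alone against the arrays without TNF was not counted.

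TDO2 rose by 3.16 ± 0.61 in RA plus TNF against TNF (limma adjusted p = 0.000796), 3.29 in array set 1 and 2.97 in array set 2. Against RA alone the combined treatment raised it by 5.09 ± 0.61 (8.53e-08), and TNF raised it by 2.57 ± 0.58 against vehicle (0.00463), a comparison in which 3.26% of all probe sets passed. This last call was lost in array set 2 alone (1.90, 0.0818) and without the intensity trend (0.0991). One RA array, at -4.07, stood far below the next, at -0.26. The interaction of 2.52 ± 0.84 did not pass (0.389), but with 16 units added to every signal before the log it was 2.53 ± 0.43 and passed (adjusted p = 0.000855). A second TDO2 probe set, 231702_at, was below the array median on every array and passed no comparison. Of the other 9 enzymes KYAT3, a kynurenine transaminase, and QPRT, which acts on quinolinate, were well above the array median and gave -0.07 and 0.21 in RA plus TNF against TNF. The list's median change there was 0.23, against 0.03 over all probe sets.

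AHR, the receptor that kynurenine and indole-3-pyruvate can activate, was highest with both agents. It read 4.5, 4.90, 4.80, 4.38 and 4.76 with RA plus TNF, against 2.96, 2.26, 3.43, 3.34 and 3.57 with TNF alone. RA alone gave 1.04 to 2.68 and vehicle at 40 h 0.48 to 3.05. The combined treatment stood above all other arrays, and the other 3 groups overlapped. Of all probe sets, 2.76% had no overlap between RA plus TNF and TNF, 2.79% against RA and 3.75% against vehicle. AHR rose by 1.55 ± 0.31 in RA plus TNF against TNF (adjusted p = 0.00153) and by 2.82 ± 0.31 against RA (1.93e-08). In array set 2 alone the first of these was 1.11 and did not pass (adjusted p = 0.111).

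Of 8 genes in the list of AHR and its targets, 3 rose and 0 fell in RA plus TNF against TNF, with a median of 0.34. In that comparison 2.53% of all probe sets passed. CYP1B1, a cytochrome P450 and a standard AHR target, rose by 1.86 ± 0.35 (adjusted p = 0.000629), at 3.51 to 3.85 with both agents against 1.31 to 2.25 with TNF. Its probe sets 202435_s_at (2.01, 3.28e-05) and 202437_s_at (2.08, 0.000111) passed as well, and the dim 202434_s_at did not. TIPARP, a mono-ADP-ribosyltransferase that AHR induces, rose by 0.98 ± 0.22 (0.00481), but passed in neither array set alone (1.03, adjusted p = 0.0514, and 0.92, 0.113). CYP1A1, another standard AHR target, was below the array median in both groups and did not pass (-0.66, 0.860), and AHRR, the receptor's repressor, gave 0.44 (0.418). Against RA alone the combined treatment raised 3 genes of the list and lowered 1, where 4.03% of all probe sets passed. ARNT fell there, on 218221_at (-0.74 ± 0.18, limma adjusted p = 0.00936). It was also lower with TNF than in vehicle (-0.68 ± 0.17, 0.0164).

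**Figure D5:**
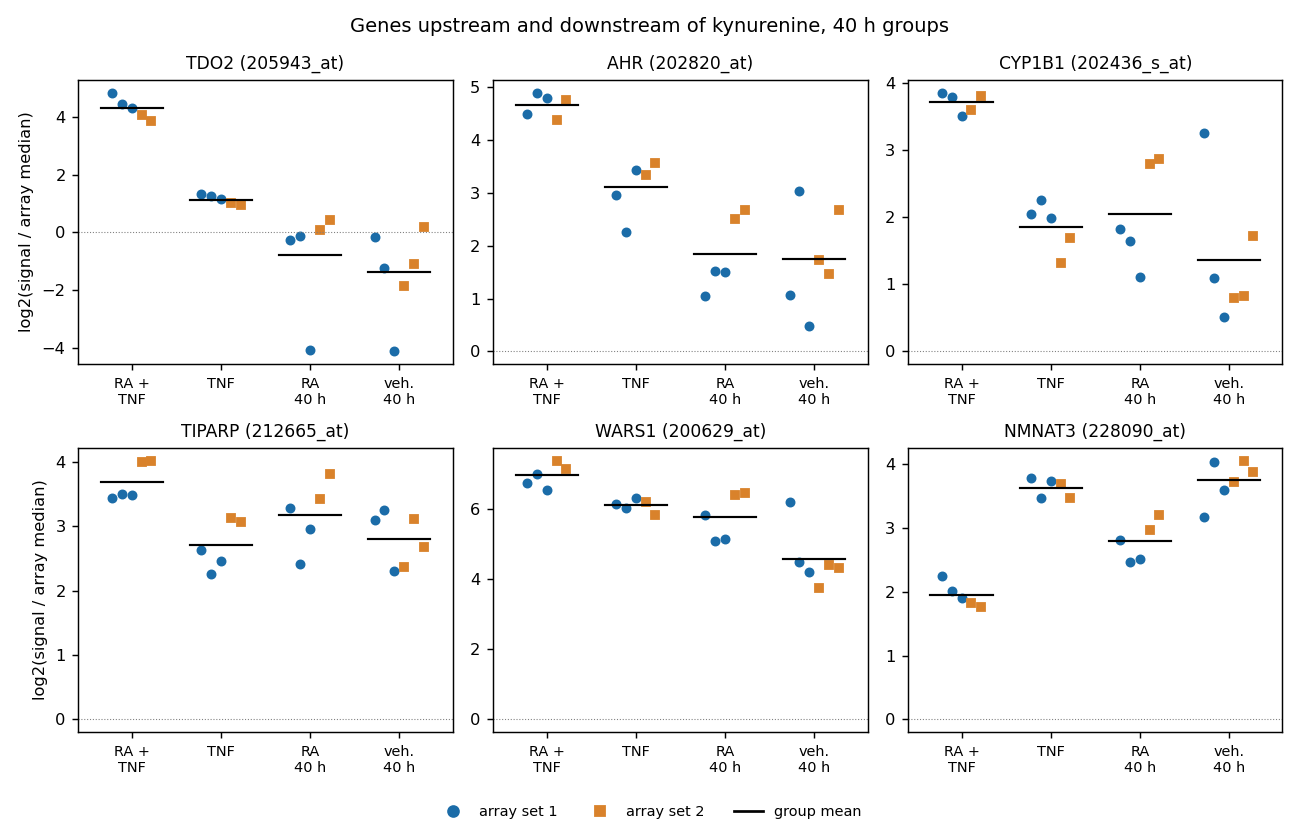
Level in the 40 h groups of TDO2, AHR, its targets CYP1B1 and TIPARP, the tryptophan-tRNA ligase WARS1 and the NAD synthesis gene NMNAT3, as log2 of signal over the array median, 1 point per array coloured by array set, bars at group means. TDO2 averages 4.30 with RA plus TNF and 1.14 with TNF, and NMNAT3 is lowest with RA plus TNF (1.94).

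For 12 genes of amino acid supply and sensing the median change in RA plus TNF against RA was 0.82, against 0.03 over all probe sets. In that comparison 4.03% of all probe sets passed in either direction and 2.42% higher. Of the 12 genes 6 rose and 0 fell. They were ATF5 (2.14 ± 0.29, adjusted p = 1.38e-06) and ATF4 (0.94, 0.022), transcription factors of the amino acid response, the transporters SLC1A5 (1.07, 0.000383), SLC7A11 (1.36, 0.0379) and SLC3A2 (0.92, 0.0384), and WARS1. SLC7A11 and SLC3A2 were named after their values were seen. WARS1, which charges tRNA with tryptophan, rose by 1.18 ± 0.28 (0.00567). It also rose with RA alone against vehicle, by 1.23 ± 0.26 (0.00489), at 5.11 to 6.47 against 3.75 to 6.22. One vehicle array stood at 6.22 and the next at 4.51, and in array set 1, which holds that array, the change was 0.39 and did not pass (adjusted p = 0.884). No gene of this list passed in RA plus TNF against TNF, where WARS1 gave 0.86 (adjusted p = 0.0961) and 0.66 (0.285) on its other probe set. WARS1 200629_at did pass there in array set 2 alone (1.26, 0.00222), with 16 units added before the log (0.84, 0.0465) and in the fit of only the arrays compared (0.86, 0.000453). In the time course WARS1 rose by 1.68 at 6 h (0.000735), 1.5 at 16 h (0.000459) and 1.98 at 40 h (4.98e-05).

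Of 8 genes of NAD synthesis, 1 fell in RA plus TNF against TNF and 0 rose, where 2.53% of all probe sets passed. NMNAT3, a mitochondrial NAD-synthesising adenylyltransferase, fell by 1.69 ± 0.20 (adjusted p = 6.17e-08), at 1.76 to 2.24 with both agents against 3.48 to 3.79 with TNF. It was also lower with RA alone than in vehicle (-0.94 ± 0.19, 0.00192), at 2.46 to 3.21 against 3.17 to 4.06, and with RA at 16 h (-0.89 ± 0.18, 0.00406). RA plus TNF against RA gave -0.85 (0.00471), but -0.55 (0.373) in array set 1 alone. Within array sets the RA change was -1.01 (0.0914) and -0.80 (0.101). A second probe set, 243738_at, gave -0.50 in RA plus TNF against TNF and passed no comparison.

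Among 14 other amine and amino acid oxidases and enzymes of aromatic amino acid breakdown, only SMOX, which oxidises spermine, passed in RA plus TNF against TNF (1.92 ± 0.49, adjusted p = 0.0187). The share of all probe sets that passed there was 2.53%. The call was lost on leaving out RA plus TNF replicate 1, 4 or 5 or TNF replicate 4 (adjusted p up to 0.0784) and in array set 1 alone (1.30, 0.312). In the time course SMOX rose by 2.20 (2 h, adjusted p = 0.0200), 3.29 (6 h, 1.68e-05), 1.64 (16 h, 0.0192) and 2.79 (40 h, 0.000194). The 2 h and 16 h calls were lost on leaving out any RA array of that time (adjusted p = 0.058 to 0.798). At 2 h this leaves 1 RA array, whose spread is assumed to be that of the other groups. HPD, the dioxygenase that follows tyrosine transamination, rose by 3.52 at 6 h (0.0305), 3.52 at 16 h (0.00754) and 4.44 at 40 h (0.00282). HPD was below the array median in vehicle, with 12.8 units at 40 h and 10.3 at 16 h.

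Of 16 interferon and NF-kB regulators linked to IDO1, 4 rose and 0 fell in RA plus TNF against TNF, where 2.53% of all probe sets passed. The list's median there was 0.06, against 0.03 over all probe sets. None of the 4 is an NF-kB gene. They were both chains of the interferon gamma receptor, IFNGR2 (1.23 ± 0.18, adjusted p = 5.92e-06) and IFNGR1 (0.84 ± 0.17, 0.00196), IRF1 (1.19 ± 0.19, 4.46e-05), an interferon-induced transcription factor, and BIN1 (0.89 ± 0.18, 0.00148), known in mouse cells as a repressor of the IDO1 gene. IRF1 was higher with RA alone too (1.49 ± 0.18, 3.19e-07), and in the time course it rose by 1.87 (2 h), 1.97 (6 h), 1.44 (16 h) and 1.89 (40 h), with adjusted p of 1.42e-06 or less. The NF-kB genes differed where only 1 side had TNF. Against RA alone the combined treatment raised 6 genes of this list and lowered 2 (4.03% of all probe sets passed). RELB (2.28, 9e-09) and NFKB1 (1.55, 4.3e-08) were among those raised. TNF against vehicle raised 5 and lowered 0 (3.26% passed), NFKB2 (3.24, 3.87e-07) and RELB (2.50, 4.36e-10) among them. Of 11 genes of mature dendritic cells and activated macrophages, 1 rose in RA plus TNF against TNF, the costimulatory receptor CD40 (0.72 ± 0.19, 0.0211), a call lost on leaving out TNF replicate 2, 3 or 4 or RA plus TNF replicate 1 or 3 (adjusted p up to 0.0842). In RA plus TNF against RA, where 2.42% of all probe sets passed as higher, 3 rose: CD83 (1.63, 6.35e-06), CD40 (1.18, 2.07e-05) and the actin-bundling FSCN1 (0.95, 0.0370).

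Near IL4I1 on chromosome 19, NUP62 and ATF5 passed in RA plus TNF against RA and SIGLEC11 in RA plus TNF against TNF. Those comparisons called 4.03% and 2.53% of all probe sets. The other neighbours looked at, TBC1D17, AKT1S1 and VRK3, passed in neither on any probe set. NUP62, which shares its start, rose by 0.74 ± 0.19 in RA plus TNF against RA on 207740_s_at (adjusted p = 0.0153) and gave 0.48 on 202153_s_at (0.160). ATF5, which overlaps the start, rose by 2.14 and 2.06 on 204998_s_at and 204999_s_at (1.38e-06 and 9.33e-05). In RA plus TNF against TNF neither passed, at -0.10 to 0.40 on those 4 probe sets. SIGLEC11, an inhibitory sialic acid receptor farther along, rose by 2.71 ± 0.24 there on 1552910_at (1.19e-10) and by 3.35 ± 0.62 on 1552911_at (0.000562). On 1552910_at it also rose by 2.54 ± 0.23 with RA alone (2.70e-10), but gave 0.38 in RA plus TNF against RA (0.552).

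The genes most like IL4I1 over the 21 arrays of the 40 h groups, after centring within each array set, were LACTB (r = 0.971), the kinase SGK1 (0.966), the growth factor binder IGFBP3 (0.963), the protease CTSH (0.963) and the gelatinase MMP9 (0.962). In RA plus TNF against TNF they gave 0.30, 0.35, 0.07, 0.44 and 0.91, none passing (adjusted p = 0.0720 to 0.981). The genes most like KYNU were CD58 (0.951), the zinc transporter SLC39A8 (0.950), CD44 (0.948), PRDX1 (0.939) and TAGLN2 (0.928). For KMO they were ATP6V0E1, UBE2J1, BCL2L13, BCKDK and HLA-C (0.850 to 0.835), and for IDO1 BBOF1, PLOD2, ZNF500, GALT and POM121 (0.737 to 0.714). These coefficients describe 21 arrays that share 4 treatment groups.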

How the data were processed

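Each of 33 THP-1 wells gave RNA for 1 Affymetrix array of the type HG-U133 Plus 2. Signals were made with GCOS, the scanner's operating software, per the submitters' processing notes, which name no version. What the authors deposited is log2 of signal over array median, a scale inferred from the numbers themselves. Raising 2 to a value minus its array's minimum recovered the signals, which under 8 units were multiples of 0.1 within 0.00467. Their mean after trimming 2% at each end was 149.98 to 150.07 units per array. Centring removes any change in total RNA. The number of arrays limits the precision.

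Of 54675 probe sets 62 controls were left out. Probe sets with 1 gene symbol numbered 41091, with several 1801 and with none 11721, by GEO's platform annotation updated through RefSeq gene numbers (41037 matched). The deposited values were fitted unchanged in limma 3.58.1 under R 4.3.3, using lmFit and eBayes with an intensity trend, Benjamini-Hochberg adjustment over 54613 probe sets and a threshold of 0.05. All adjusted p-values are from these fits, and errors beside a log2 change are standard errors. The 40 h groups (21 arrays) were fitted with the array set as a covariate, leaving 16 residual degrees of freedom. The time course (17 arrays of array set 2, 12 residual degrees of freedom) used 5 vehicle arrays of 16 h and 3 of 40 h, and the 2 RA arrays of 40 h. The fit was tested on simulated data. Figures were drawn with matplotlib 3.10.9.

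The 4 genes and the gene lists were chosen with earlier results of these data known. Of each list, each gene stood by its probe set of highest mean, and up to 4 genes per comparison past the threshold were named, by smallest adjusted p, with further members given by their values. The SIGLEC11 and WARS1 probe set details, the second probe sets and the genes of a list that did not pass were chosen after their values were seen. Genes most like a member were the 5 of highest Pearson r among probe sets above the median of all. Sequences are RefSeq's, from 35116 windows of GRCh38.p14, with Python 3.11.15. Alternatives were a brightness filter, 1 probe set per gene, quantile normalization, GCOS scaling, 16 units added before the log, no intensity trend, no array set covariate, each array set alone, a replicate block, other vehicle arrays, and each array left out.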

Additional observations from a re-analysis of the deposited data

Results flagged for a closer look

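Among 75 groups of 5 or 6 arrays checked over the 9 probe sets and 6 list genes, 7 values stood apart from the rest of their group, where chance gives about 1 in 20 groups. On IDO1 210029_at vehicle 40 h replicate 2 read -3.68, next to -0.72. KYNU 210662_at read -4.47 in RA 40 h replicate 1, next to -2.35, and -3.84 in vehicle 16 h replicate 3, next to -1.40. KMO 205306_x_at read 1.07 in TNF replicate 5, next to 1.86, and KMO 205307_s_at read -0.67 in vehicle 40 h replicate 3, next to 0.60. TDO2 205943_at read -4.07 in RA 40 h replicate 3, next to -0.26, and WARS1 200629_at read 6.22 in vehicle 40 h replicate 1, next to 4.51. For IFNGR2, a chain of the interferon gamma receptor, the effect of RA under TNF exceeded that without TNF by 1.13 ± 0.24 (limma adjusted p = 0.0415), a call lost on leaving out 16 of 21 single arrays (adjusted p up to 0.112).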

How the results depend on the processing

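Of 1448 recomputed tests on the 9 probe sets, those of the interaction included, 1442 kept their side of the threshold, 3 lost it and 3 passed it. The main fits made 4 calls on these probe sets, all in RA plus TNF against RA. Most of the 1448 were thus of changes that had not passed, and their count says little about the calls. The 3 lost were the KYNU calls in array set 2 alone. The sign was kept in 1317 and turned in 131, none of which passed. KYNU 217388_s_at in RA against vehicle was -0.45 after quantile normalization (adjusted p = 0.0169) and -0.46 with GCOS scaling (0.0478). In RA plus TNF against RA it was 0.64 in array set 2 alone (0.189). IL4I1 in RA plus TNF against TNF was 0.84 in a fit of those arrays only (0.000111), chosen after seeing the data. Causes were not tested.

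Of 3386 tests on list genes 3186 kept their side, 158 lost the threshold and 42 passed it. Without the intensity trend AHR (adjusted p = 0.0795), TIPARP (0.0694) and IFNGR1 (0.0750) did not pass in RA plus TNF against TNF, nor did WARS1 in RA against vehicle (0.234) or TDO2 in TNF against vehicle (0.0991). Probe sets passing in RA plus TNF against RA numbered 1322 higher (340 to 1681 over alternatives) and 879 lower (332 to 1743). For RA plus TNF against TNF they were 793 (368 to 1071) and 589 (154 to 1130), and for RA against vehicle 507 (191 to 703) and 159 (46 to 524).

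Same-numbered arrays correlated in their deviations at -0.063 to 0.034 in array set 1 (18 pairs) and -0.092 to 0.080 in array set 2 (12 pairs), so no shared deviation was detected. Whether same-numbered wells were cultured together cannot be told from this. In array set 2 the groups of 2 arrays deviate as mirror images, so those pairs hold little information. With the replicate block IL4I1 was 6.55 ± 0.40 in RA plus TNF against RA (4.67e-14) and 0.84 ± 0.40 against TNF (0.403), KYNU 217388_s_at was 1.21 ± 0.18 against RA (1.32e-05), and no call on the 9 probe sets changed. Of the brightness filter, IL4I1 and IDO1 passed it in the 40 h groups but not in the time course, where they are too dim for small changes to be seen.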
